A study of Mus musculus with 18 samples.

Results

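Cathepsins are the proteases of the lysosome, and their transcripts were followed here through a photothrombotic stroke of the mouse brain. The members are the 10 genes Ctsa, Ctsb, Ctsc, Ctsd, Ctsf, Ctsh, Ctsk, Ctsl, Ctss and Ctsz, found by their gene name among 34921 genes with values in 18 libraries. Total RNA was sequenced from small pieces of cerebral tissue punched out of the brains of male C57BL/6 mice aged 9 weeks, with 3 libraries in each of 6 groups. The 4 stroke groups are punches of the right-side lesion taken 4 h, 1 day, 3 days or 10 days after photothrombosis, in which a light-sensitive dye and a light spot through the skull clot the vessels below. The dye was rose bengal (100 mg/kg, intraperitoneal), given 5 min before 15 min of light (532 nm, 40 mW, 2 mm fiber) aimed 2 mm to the right of bregma, a meeting point of skull sutures. A group of left-side punches, called contralateral left here, came from mice with stroke according to the protocol but is labelled sham, without a time. Sham right, the matching right-side region of sham mice, was the control for each stroke time, while steps between times compared stroke groups. Whether sham mice received the dye or the light is not said in the labels. The labels name no altered gene in any group. A punch of tissue holds all cell types, so more cells of a type and more RNA per cell cannot be told apart.

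Most cathepsins are made as inactive proforms, carried to the lysosome by mannose 6-phosphate receptors, and turned active by the acid pH that a proton pump maintains. They differ in catalytic residue and in where they cut. Ctsd is an aspartic protease, Ctsa a serine carboxypeptidase, and the other members are cysteine proteases of the papain family, which cystatins inhibit. In the brain, microglia and the macrophages that enter an injury are known to be rich in lysosomes and to take up debris.

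Levels are given in FPKM, a fragment count scaled by transcript length and library size, so different genes can be compared per length. The depth of the libraries is unknown, since only 33.0% to 41.1% of the low values of single-exon genes lay within 0.1 of a whole multiple of the smallest common step. Between 12118 and 13632 genes reached 1 FPKM per library. Transcripts encoded by the mitochondrial genome took 24.4% to 44.6% of the summed FPKM, the highest share in 10 day 5. Leaving out contralateral left 5 and 10 day 5 together raised the number of genes called in the comparison of contralateral left with sham right to 2760, against 4 with them. Leaving out 1 library of these 2 groups at a time gave 0 to 1213. The library 10 day 5 is in neither group and enters that comparison only through the spread pooled over all libraries. Member counts are given with and without contralateral left 5 and 10 day 5. The summed level of 5 choroid plexus markers varied within groups, with 61.9, 222 and 1.46 FPKM at 3 days and 633, 408 and 541 FPKM at 10 days, against 272, 147 and 231 FPKM in sham right, and its part in the cathepsin values was not tested.

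All 10 members had at least 1 FPKM in 3 or more libraries and entered the test, so none was lost to the filter. Differences are log2 fold changes of FPKM + 1 from limma, with standard errors, and a gene was called at a Benjamini-Hochberg adjusted p under 0.05 over all 14016 genes tested. No member was called at 4 h and Ctsc alone at 1 day, while 8 members were called higher at 3 days and 9 at 10 days, when Ctsk joined them and Ctsf did not. The summed FPKM of the 10 members was 300.5 ± 24.3 at 4 h, 339 ± 11.5 at 1 day, 1078 ± 183 at 3 days and 1893 ± 236 at 10 days, against 291 ± 19.4 in sham right (SD, n = 3 each). The sums of the 10 day libraries (1721 to 2162) lay above those of the 3 day libraries (881 to 1244), which lay above those of all earlier libraries.

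**Figure D1:**
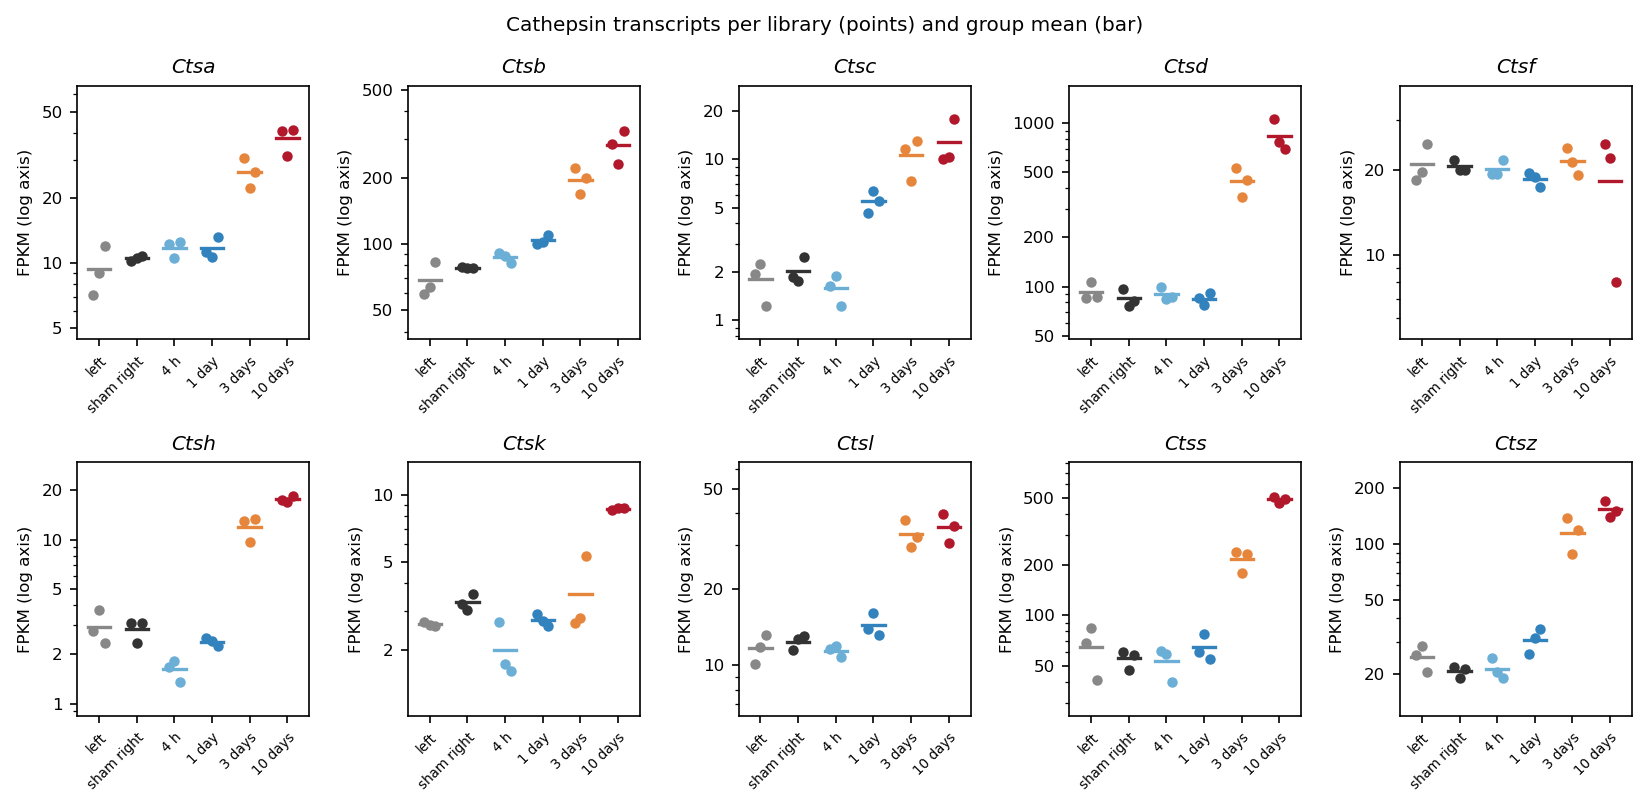
FPKM on a log axis for each of the 10 cathepsins (panels), with 1 point per library and a bar at the mean of each group of 3: contralateral left, sham right, 4 h, 1 day, 3 days and 10 days. In 8 panels the 3 day and 10 day points lie above all sham right points, in the Ctsk panel only the 10 day points do, and in the Ctsf panel the groups overlap except that the 1 day points lie just below sham right.

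At 4 h no member was called, while 2.18% of all genes tested were called in either direction. Unadjusted p-values under 0.05 were found for 2 members (Ctsh and Ctsk, both lower), a count near the share of all genes, 16.5%. At 1 day 1 member, Ctsc, was called higher, beside 0.899% of all genes. At 3 days 8 members were called higher and none lower, beside 6.91% of all genes. At 10 days 9 members were called higher and none lower, beside 6.21% of all genes. The median log2 fold change of the members was −0.05 at 4 h, 0.17 at 1 day, 1.54 at 3 days and 1.98 at 10 days, while the median of all genes tested lay between −0.07 and 0.08 at these times. Without contralateral left 5 and 10 day 5 the counts were 1, 1, 8 and 9 in the same order of times. The 4 comparisons share the sham right libraries and are not independent of each other.

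**Figure D2:**
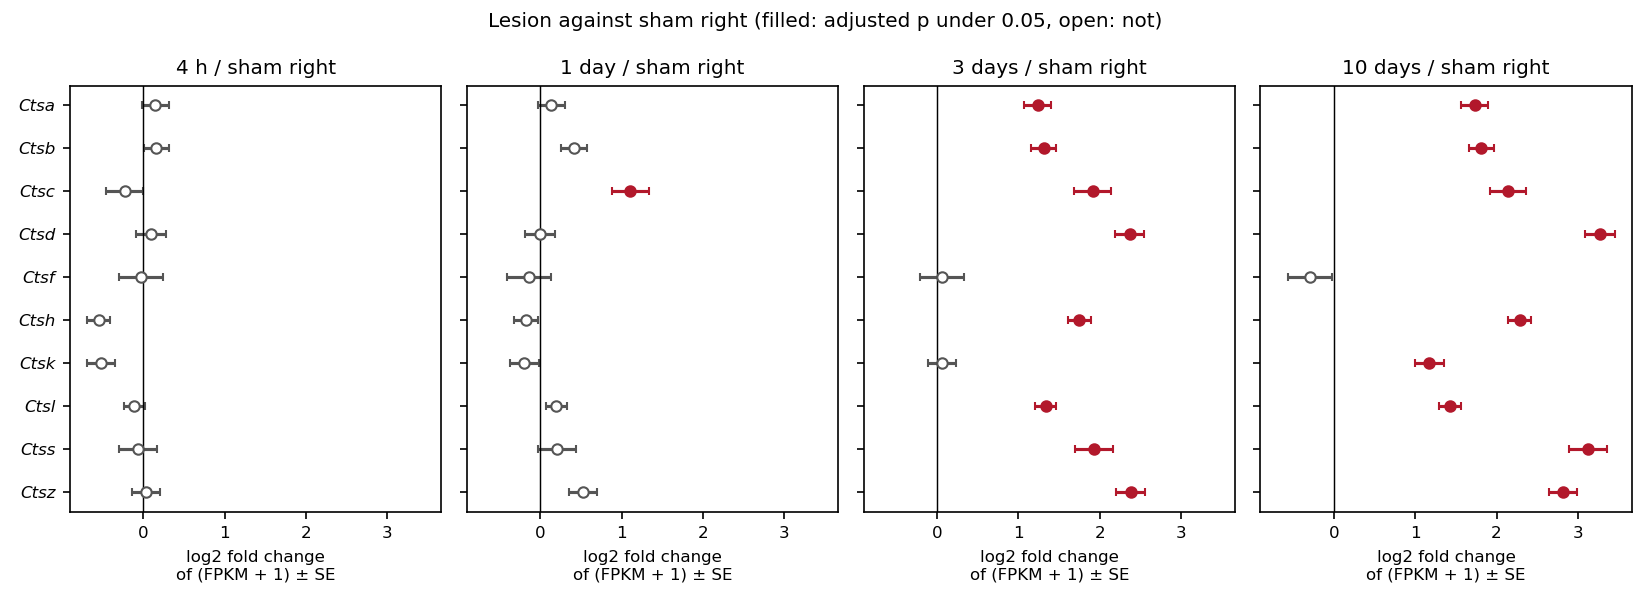
Log2 fold change of FPKM + 1 with its standard error for the 10 cathepsins at 4 h, 1 day, 3 days and 10 days against sham right, from limma on 3 libraries per group. Filled points passed an adjusted p of 0.05: none at 4 h, Ctsc at 1 day, 8 members at 3 days and all but Ctsf at 10 days.

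Ctsd, the aspartic endopeptidase that starts the breakdown of many proteins in the lysosome, had the highest level of the members in every 3 day and 10 day library. It had 1058.5, 765 and 696 FPKM at 10 days, against 96.7, 76.0 and 81.7 FPKM in sham right. At 3 days it had 529, 355 and 452 FPKM. Both late groups lay wholly above sham right, as they did for 8 members at 3 days and 9 at 10 days, beside 27.2% and 13.8% of all genes at these times, and the 10 day libraries lay wholly above the 3 day libraries. The log2 fold change against sham right was 2.37 ± 0.18 at 3 days (adjusted p = 1.01e-06) and 3.28 ± 0.18 at 10 days (adjusted p = 1.48e-08), a ratio of mean FPKM of 9.90 at 10 days. At 1 day its level of 84.8, 77.1 and 91.0 FPKM overlapped sham right, with a log2 fold change of −0.00 ± 0.18. Ctsd lies on chromosome 7 (142375911 to 142388038, minus strand, GRCm38) and shares 808 exon bases with Gm49369, an annotated gene of the same strand that had 1.22 to 21.7 FPKM, so a part of the fragments could be counted for either gene.

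Ctsa is a serine carboxypeptidase that also protects the lysosomal enzymes β-galactosidase (Glb1) and neuraminidase 1 (Neu1) in a complex. It had 40.6, 31.2 and 41.0 FPKM at 10 days, against 10.25, 10.57 and 10.79 FPKM in sham right. At 3 days it had 30.6, 22.3 and 26.2 FPKM, also wholly above sham right. The log2 fold change was 1.24 ± 0.17 at 3 days (adjusted p = 1.04e-04) and 1.73 ± 0.17 at 10 days (adjusted p = 2.32e-06). Of its complex partners, Glb1 rose, with a log2 fold change of 0.97 ± 0.13 at 10 days (adjusted p = 9.65e-05) and Neu1 had a value of −0.02 ± 0.12 (adjusted p = 0.956). Ctsa lies on chromosome 2 (164832873 to 164841032, plus strand) and shares 495 exon bases with Pltp and 324 with Neurl2, both of the other strand. Pltp had a mean of 11.6 FPKM in sham right and 14.3 FPKM at 10 days. Neurl2 had 1.07 to 2.74 FPKM. How the authors' counting treated strand is not given in the sources used here.

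The promoters of Ctsd and Ctsa are shown because both genes were called higher at 3 days and 10 days and each has a window that holds TCACGTG, the letters of the E-box-like site that the lysosomal transcription factor TFEB is known to bind. RefSeq windows of 300 bases (250 before and 50 after a start, GRCm38.p6) were found for 8 of the 10 members, 9 windows in all. Ctsa has 2 of them, and the one at its annotated gene start (chr2:164832622-164832921) holds neither TCACGTG nor CACGTG, so the window shown is that of the start further inside the gene. Capitals mark TCACGTG read on either strand, and each match also contains the shorter E-box CACGTG.

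Ctsd promoter, chr7:142387778-142388077, minus strand: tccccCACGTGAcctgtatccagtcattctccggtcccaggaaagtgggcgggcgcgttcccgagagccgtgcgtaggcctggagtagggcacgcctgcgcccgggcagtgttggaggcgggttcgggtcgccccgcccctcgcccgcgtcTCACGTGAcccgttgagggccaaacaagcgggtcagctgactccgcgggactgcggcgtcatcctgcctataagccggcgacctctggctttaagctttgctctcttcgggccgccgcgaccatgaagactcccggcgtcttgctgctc
Ctsa promoter, chr2:164833523-164833822, plus strand: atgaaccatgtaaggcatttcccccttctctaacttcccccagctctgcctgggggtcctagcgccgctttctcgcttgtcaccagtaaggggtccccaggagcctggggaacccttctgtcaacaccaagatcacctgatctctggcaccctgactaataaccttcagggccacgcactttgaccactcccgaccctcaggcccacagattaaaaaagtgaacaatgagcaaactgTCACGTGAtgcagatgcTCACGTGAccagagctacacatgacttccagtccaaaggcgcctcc

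In the Ctsd window the E-box CACGTG begins 245 and 98 bases before the start, and in the Ctsa window it begins 12 bases before the start and at base 6 after it. TCACGTG was found in a window of 2 of the 8 members, Ctsa and Ctsd, and in 3.77% of all 32851 RefSeq windows of the same length. CACGTG alone was found in 4 of the 8 members (Ctsa, Ctsd, Ctsf and Ctsl) and in 7.15% of all windows. Ctsf, whose window holds it, did not pass the test at any time. The longer CLEAR palindrome and the AP-1 site TGANTCA were found in no member window, and in 0.326% and 7.81% of all windows.

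Ctss is an endopeptidase that stays active near neutral pH and trims the invariant chain of MHC class II in antigen-presenting cells. It had 507, 468 and 494 FPKM at 10 days, against 60.8, 47.5 and 58.0 FPKM in sham right. At 3 days it had 237, 177 and 230 FPKM. The groups at both times lay wholly above sham right, and the spread at 10 days was narrow (SD 19.9 FPKM). The log2 fold change was 1.93 ± 0.23 at 3 days (adjusted p = 3.74e-05) and 3.13 ± 0.23 at 10 days (adjusted p = 1.90e-07), second among the members to Ctsd. Ctss (chromosome 3, 95526786 to 95556403, plus strand) lies 17424 bases from its neighbour Ctsk, which was not called at 3 days. The difference between the neighbours was not tested.

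Ctsb cuts within proteins and also removes dipeptides from their C terminus. It had 284, 229 and 325 FPKM at 10 days, against 78.3, 77.7 and 77.7 FPKM in sham right, and 221, 168 and 198 FPKM at 3 days. It rose by a log2 fold change of 1.31 ± 0.16 at 3 days (adjusted p = 3.40e-05) and 1.81 ± 0.16 at 10 days (adjusted p = 7.26e-07). Ctsb had the smallest coefficient of variation of the members in sham right (0.472%) and was the only member with all values above sham right at each of the 4 times. At 4 h it had 90.8, 88.6 and 82.0 FPKM and at 1 day 100.2, 102 and 110.3 FPKM. Those early differences were not called (log2 0.16 ± 0.16, adjusted p = 0.632 at 4 h, and 0.41 ± 0.16, adjusted p = 0.366 at 1 day). All values above sham right were also seen for 18.8% of all genes at 4 h and 14.3% at 1 day. Ctsb shares 774 exon bases with Fdft1 of the other strand, which had 9.21 to 28.4 FPKM.

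Ctsl is an endopeptidase with a broad choice of substrates. It had 39.8, 30.5 and 35.7 FPKM at 10 days, against 11.55, 12.70 and 13.04 FPKM in sham right, and 37.6, 29.3 and 32.1 FPKM at 3 days. The 3 day and 10 day libraries overlapped each other and both lay above sham right. Against sham right Ctsl had a log2 fold change of 1.33 ± 0.13 at 3 days (adjusted p = 5.99e-06) and 1.43 ± 0.13 at 10 days (adjusted p = 1.64e-06). Ctsl (chromosome 13, 64359337 to 64370890, minus strand) shares 1742 exon bases with Gm47123, an antisense RNA. Ctsl also shares 395 exon bases with Gm49230, a processed pseudogene of the same strand. Neither Gm47123 nor Gm49230 was analysed here.

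The members that trim the ends of proteins rose as well. Ctsz, a carboxypeptidase that removes single residues, had 171, 139 and 151 FPKM at 10 days, against 22.0, 19.3 and 21.4 FPKM in sham right, and 137, 88.1 and 118 FPKM at 3 days. Its log2 fold change of 2.38 ± 0.17 at 3 days (adjusted p = 6.16e-07) and that of Ctsd were close to each other and the highest of the members at that time. At 10 days the value of Ctsz was 2.82 ± 0.17 (adjusted p = 4.65e-08). Ctsh, an aminopeptidase, had 17.5, 16.9 and 18.5 FPKM at 10 days, against 3.09, 2.35 and 3.09 FPKM in sham right. Its log2 fold change was 1.75 ± 0.15 at 3 days (adjusted p = 1.44e-06) and 2.28 ± 0.15 at 10 days (adjusted p = 5.49e-08). At 4 h Ctsh had 1.67, 1.83 and 1.35 FPKM, all below sham right as were 17.2% of all genes, a log2 fold change of −0.55 ± 0.15 that missed the threshold (adjusted p = 0.0604) and passed it in 4 alternative fits.

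Ctsc, or dipeptidyl peptidase 1, removes dipeptides from the N terminus and is known for activating the granule proteases of neutrophils, mast cells and cytotoxic lymphocytes. It was the only member called at 1 day, with 4.63, 6.39 and 5.54 FPKM there, against 1.86, 1.75 and 2.47 FPKM in sham right. The log2 fold change at 1 day was 1.11 ± 0.23 (adjusted p = 0.0211), and the groups did not overlap. The call ended without sham right 1 (adjusted p = 0.0964), without sham right 2 (0.119), without 1 day 3 (0.134) and without 1 day 4 (0.0867), while the log2 fold change stayed between 1.01 and 1.21. It also ended with no filter on low values (0.0739), with median ratio scaling (0.0661) and with the replicate number as a block (0.180). At 3 days Ctsc had 11.6, 7.31 and 12.98 FPKM (log2 1.92 ± 0.23, adjusted p = 3.17e-05) and at 10 days 10.0, 10.3 and 17.8 FPKM (log2 2.14 ± 0.23, adjusted p = 5.86e-06). Of 10 neutrophil markers, 4 passed the filter and none of them was called at 1 day. The sum of all 10 was 7.85 to 28.7 FPKM at 1 day, against 2.12 to 7.16 FPKM in sham right. The tested markers S100a9, S100a8, Retnlg and Csf3r had log2 fold changes of 1.93 ± 0.49 (adjusted p = 0.0819), 1.36 ± 0.45, 1.02 ± 0.37 and 0.007 ± 0.20 at 1 day. Ly6g, Ngp, Camp and Ltf were at 0 in every 1 day library. In sham right Ly6g and Ltf were at 0 as well, and Ngp and Camp had means of 0.0721 and 0.0486 FPKM. Of 9 lymphocyte markers, all had a mean under 1 FPKM at 1 day. The part of these cells in the Ctsc values was not tested.

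The promoters of Ctss and Ctsc are shown because their windows were the only ones of the 8 members to hold GAGGAAGT, a form of the site of PU.1, a transcription factor of myeloid cells. Capitals mark the match, which reads ACTTCCTC on the strand printed.

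Ctss promoter, chr3:95526536-95526835, plus strand: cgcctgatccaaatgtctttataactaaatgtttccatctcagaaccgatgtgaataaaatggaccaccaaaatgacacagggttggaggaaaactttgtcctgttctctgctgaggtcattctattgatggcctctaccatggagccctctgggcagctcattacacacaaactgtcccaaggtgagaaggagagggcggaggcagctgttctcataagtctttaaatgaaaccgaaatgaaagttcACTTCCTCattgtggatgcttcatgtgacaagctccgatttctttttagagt
Ctsc promoter, chr7:88277835-88278134, plus strand: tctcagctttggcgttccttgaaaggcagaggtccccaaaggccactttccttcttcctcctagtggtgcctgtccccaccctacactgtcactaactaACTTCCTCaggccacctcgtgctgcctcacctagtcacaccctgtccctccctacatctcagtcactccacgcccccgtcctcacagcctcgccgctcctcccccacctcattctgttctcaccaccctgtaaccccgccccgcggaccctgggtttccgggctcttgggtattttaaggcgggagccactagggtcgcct

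The match begins 2 bases before the start in the Ctss window and 151 bases before it in the Ctsc window. These letters were found in 3.2% of all 32851 windows on either strand.

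Ctsk, a cysteine protease that degrades collagen and is best known from osteoclasts, was called at 10 days only. It had 8.51, 8.68 and 8.72 FPKM at 10 days, against 3.23, 3.02 and 3.59 FPKM in sham right, a log2 fold change of 1.17 ± 0.17 (adjusted p = 2.03e-04). At 3 days it had 2.65, 2.80 and 5.30 FPKM, and only 3 day 8 lay above sham right (log2 0.06 ± 0.17, adjusted p = 0.934). At 4 h it had 2.68, 1.73 and 1.62 FPKM and at 1 day 2.92, 2.70 and 2.58 FPKM, all below sham right. So were 17.2% of all genes at 4 h and 8.5% at 1 day. Ctsk was called at neither time (log2 −0.52 ± 0.17, adjusted p = 0.140 at 4 h). Its contralateral left values, 2.57 to 2.68 FPKM, were below sham right as well. The library with the highest Ctsk at 3 days also had the highest sum of 6 fibroblast markers, 61.1 FPKM in 3 day 8, against 13.8 and 18.04 FPKM in 3 day 1 and 2. At 10 days these sums were 78.2, 90.8 and 215 FPKM, against 11.88, 10.97 and 11.98 FPKM in sham right, while Ctsk varied by an SD of 0.109 FPKM between the 10 day libraries. All 6 fibroblast markers (collagens Col1a1, Col1a2 and Col3a1, and Dcn, Lum and Fbln1) were called higher at 10 days and 1, Col3a1, at 3 days. Col3a1 stayed under 1 FPKM in every sham right, contralateral left, 4 h and 1 day library. It met the filter through the later groups, so its calls there are not independent of it. The part of the fibroblast markers in the Ctsk values was not tested.

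Ctsf, a cysteine protease whose long propeptide carries a cystatin-like stretch, was not called in any comparison. It had 24.8, 22.2 and 8.05 FPKM at 10 days, against 21.75, 20.03 and 19.99 FPKM in sham right. The value in 10 day 5 was less than any other Ctsf value in the 18 libraries. The log2 fold change was −0.30 ± 0.27 at 10 days, with a 95% confidence interval of −0.87 to 0.27 (adjusted p = 0.565), and 0.18 without 10 day 5 (adjusted p = 0.738). At 3 days it was 0.06 ± 0.27, with an interval of −0.51 to 0.63. At 1 day Ctsf had 19.6, 18.8 and 17.5 FPKM, just below sham right in all libraries, as were 8.5% of all genes.

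The make-up of the cathepsin transcripts at 10 days was not that of sham right. Ctsd made up 44.1% ± 5.12 of the summed cathepsin FPKM at 10 days and 29.1% ± 1.86 in sham right (SD, n = 3 each). Ctss made up 26.1% ± 2.27 at 10 days and 19.0% ± 1.29 in sham right. Ctsb made up 14.9% ± 2.80 at 10 days and 26.9% ± 1.71 in sham right. Ctsf made up 0.960% ± 0.449 at 10 days and 7.09% ± 0.278 in sham right, with no called change of its own level. For each of these 4 members the 10 day libraries and the sham right libraries did not overlap. The shares of Ctsa, Ctsk, Ctsl and Ctsz did not overlap either, while those of Ctsc and Ctsh did. In contralateral left 1, 3 and 5 the Ctss share was 24.3%, 25.4% and 14.4%, with contralateral left 1 and 3 within the 10 day range. The Ctsb share there was 21.0%, 19.3% and 28.9%, with contralateral left 1 and 3 below sham right. The left-side shares of Ctsd (29.9% to 32.0%) and Ctsf (5.92% to 8.65%) lay outside their 10 day ranges. Ctsd, Ctss and Ctsb together made up 84.96% ± 0.599 at 10 days and 75.0% ± 1.04 in sham right. These shares are of 1 sum, so a higher share of a member lowers the others, and they were not tested.

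**Figure D3:**
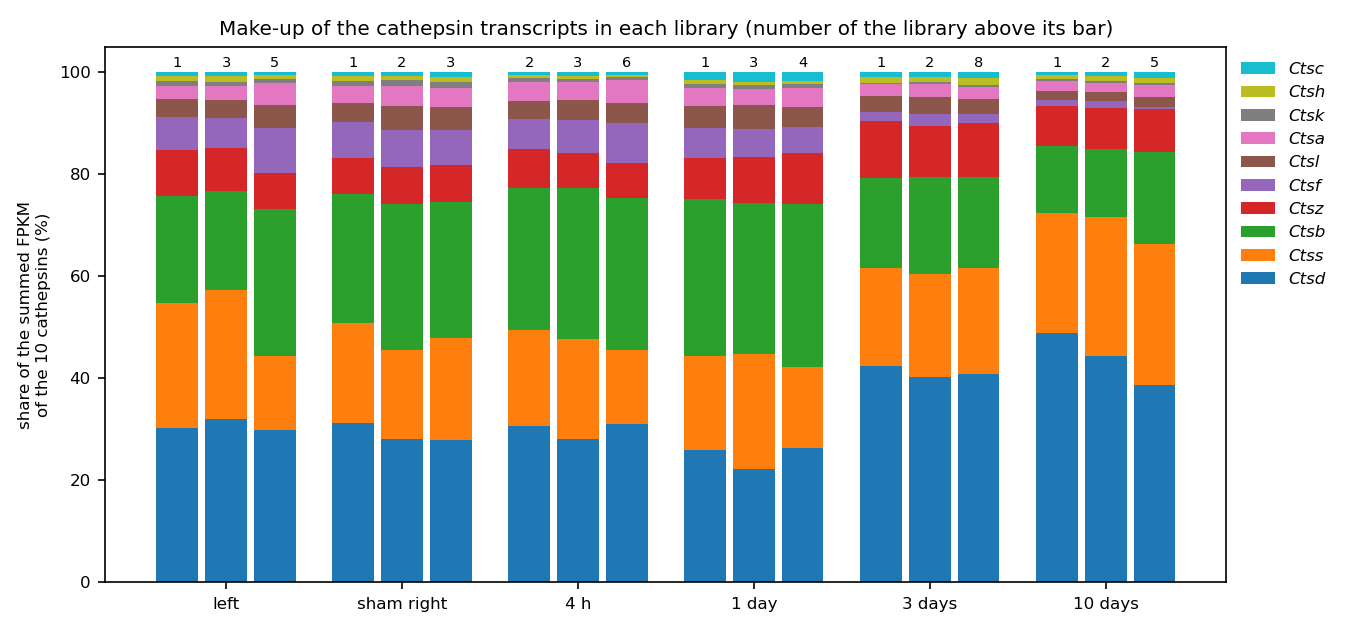
Share of the summed FPKM of the 10 cathepsins (percent, from 0 to 100) taken by each member, as 1 stacked bar per library with the number of the library above it, grouped as contralateral left, sham right, 4 h, 1 day, 3 days and 10 days. The Ctsd part at the base of each bar takes 38.7% to 49.0% in the 10 day libraries and 28.0% to 31.3% in sham right.

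The steps between successive times were tested in the same limma fit. Between 4 h and 1 day, Ctsc was the only member called, higher at 1 day by 1.34 ± 0.23 (adjusted p = 0.00617), beside 0.849% of all genes called higher. Between 1 day and 3 days, 8 members were called higher at 3 days, beside 5.07% of all genes. The log2 differences were 2.37 ± 0.18 for Ctsd, 1.92 ± 0.15 for Ctsh, 1.85 ± 0.17 for Ctsz and 1.73 ± 0.23 for Ctss, and between 0.81 and 1.14 for Ctsl, Ctsa, Ctsb and Ctsc (largest adjusted p = 0.0489, for Ctsc, whose call held in 3 of 14 alternative fits). Between 3 days and 10 days, 3 members were called higher at 10 days, beside 0.828% of all genes. These were Ctss (1.20 ± 0.23, adjusted p = 0.0106), Ctsk (1.12 ± 0.17, adjusted p = 0.00198) and Ctsd (0.91 ± 0.18, adjusted p = 0.0134). The later libraries lay wholly above the earlier ones for 5 members at 1 day against 4 h, beside 12.6% of all genes, for 8 members at 3 days against 1 day, beside 16.9%, and for 7 members at 10 days against 3 days, beside 5.77%. The calls of Ctsd and Ctss ended without 3 day 2 (adjusted p = 0.0756 and 0.0580), and that of Ctsd also without 10 day 1 (0.0515). In a fit of only the 3 day and 10 day groups none of the 3 was called (adjusted p = 0.118 to 0.329), while with median ratio scaling 6 members were, with Ctsa, Ctsb and Ctsh added (adjusted p = 0.0317 to 0.0411). The 1 day call of Ctsc against 4 h ended with the replicate block (adjusted p = 0.248). Ctsl had 0.09 ± 0.13 over this last step, with a 95% confidence interval of −0.19 to 0.38, and Ctsc 0.23 ± 0.23. Ctsa, Ctsb, Ctsh and Ctsz had values of 0.44 to 0.53 that were not called, while the median of all genes was −0.15.

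**Figure D4:**
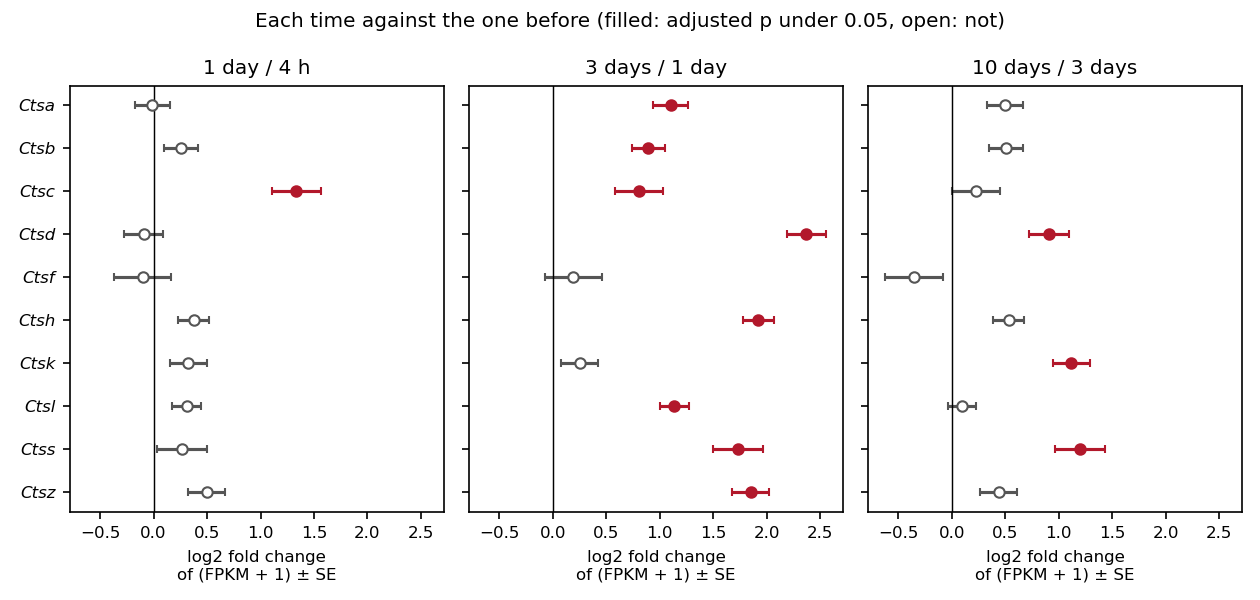
Log2 difference of FPKM + 1 with its standard error for the 10 cathepsins at 1 day against 4 h, 3 days against 1 day and 10 days against 3 days, from limma on 3 libraries per group. Filled points passed an adjusted p of 0.05: Ctsc in the first panel, 8 members in the second, and Ctsd, Ctsk and Ctss in the third.

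In the left-side punches no member was called against sham right, beside 0.0285% of all genes. No member had an unadjusted p under 0.05, beside 7.68% of all genes, and the log2 fold changes ran from −0.24 for Ctsk to 0.23 for Ctsz. Ctsd had 85.6, 106.1 and 85.8 FPKM in contralateral left, against 96.7, 76.0 and 81.7 FPKM in sham right. Ctsk was the only member whose values did not overlap (2.68, 2.61 and 2.57 FPKM in contralateral left, all below sham right), as were those of 8.29% of all genes. The summed cathepsin level was 300 ± 27.4 FPKM in contralateral left and 291 ± 19.4 FPKM in sham right.

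The natural inhibitors of cathepsins were read from a list of 9 genes, of which 6 passed the filter. Cst7 (cystatin F), an inhibitor of cysteine cathepsins made by immune cells and known to act on Ctsc, had 37.1 ± 4.09 FPKM at 10 days and 0.104 ± 0.0176 FPKM in sham right, a log2 fold change of 5.10 ± 0.18 (adjusted p = 6.90e-11), above that of any member. At 3 days Cst7 had 3.19 ± 1.14 FPKM (log2 1.89 ± 0.18) and at 1 day its log2 fold change was 1.07 ± 0.18 (adjusted p = 0.00465). Ctla2a, a relative of the cathepsin propeptide, was called at all 4 times and was highest early, with a log2 fold change of 2.66 ± 0.20 at 4 h (adjusted p = 3.09e-06) and 1.27 ± 0.20 at 10 days (adjusted p = 3.46e-04). The near-identical Ctla2b was called at 4 h, 3 days and 10 days, and reads could be shared between these genes. Cst7 and Ctla2b stayed under 1 FPKM in all sham right and contralateral left libraries. They met the filter through stroke groups, so their calls there are not independent of it. Cst3 (cystatin C), the most abundant inhibitor of the list with 1309 ± 243 FPKM at 10 days and 942 ± 133 FPKM in sham right, was not called (log2 0.47 ± 0.34, adjusted p = 0.475), nor were Cstb and Cst6. In all, 2 of the 6 were called higher at 4 h, 2 at 1 day, 3 at 3 days and 3 at 10 days, and none lower.

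Of the other enzymes of lysosomal protein breakdown, 8 genes, none was called at 4 h or 1 day, 4 were called higher at 3 days and 5 at 10 days. Lgmn (legumain), which cuts after asparagine and matures several cathepsins, had 131 ± 23.5 FPKM at 10 days and 40.4 ± 1.58 FPKM in sham right, with log2 fold changes of 1.80 ± 0.16 at 3 days (adjusted p = 1.97e-06) and 1.66 ± 0.16 at 10 days (adjusted p = 2.01e-06). Scpep1, Prcp and Glb1 were called at both times, and Tpp1, a tripeptidyl peptidase, at 10 days (0.93 ± 0.22, adjusted p = 0.0129). Psap, the precursor of the saposins, had 0.38 ± 0.17 at 10 days (adjusted p = 0.227). The median of the list was 0.65 at 3 days and 0.95 at 10 days, below the medians of the cathepsins given above.

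None of 6 genes of lysosomal sorting (M6pr, Igf2r, Gnptab, Gnptg, Nagpa and Sort1) was called at any of the 4 times, and their median was 0.16 at 3 days and 0.06 at 10 days. Of 16 tested subunits of the proton pump none was called at 3 days and 2 were called higher at 10 days. These were Atp6v0d2 (2.01 ± 0.36, adjusted p = 0.00126), with 1.32 to 9.50 FPKM at 10 days and 0 to 0.0162 FPKM in sham right, and Atp6v0e (0.80 ± 0.16, adjusted p = 0.00407). Atp6v0d2 had a mean under 1 FPKM in every other group. It met the filter through the 10 day libraries, so its call at 10 days is not independent of the filter. The median of the pump genes was −0.11 at 10 days. Of the MiT/TFE transcription factors of lysosomal genes, Tfeb, Tfe3 and Mitf were tested and none was called at any of the 4 times. The nearest was Mitf at 10 days (0.55 ± 0.16, adjusted p = 0.0566). Of 6 lysosomal membrane genes 2 were called higher at 3 days (Cd68 and Cd63) and 4 at 10 days. Cd68, a membrane glycoprotein of macrophage lysosomes, had 3.87 ± 0.29 at 10 days (adjusted p = 1.92e-07), Cd63 1.33 ± 0.28, Lamp2 1.11 ± 0.19 and Lamp1 1.01 ± 0.16.

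Among cathepsins outside the 10 members, Ctso alone reached the filter and was not called (0.32 ± 0.14 at 10 days, adjusted p = 0.210). Ctse, an aspartic cathepsin of endosomes, had 0.303 to 0.637 FPKM at 10 days and was listed at 0 in all sham right libraries. Ctsw and Ctsg, proteases of lymphocytes and of neutrophils and mast cells, had means of 0.520 and 0 FPKM at 10 days and 0.212 and 0 FPKM in sham right. The placental cathepsins were not analysed here.

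Of the markers of microglia and macrophages, some were called higher at the same times as the cathepsins. The summed FPKM of 11 microglia markers was 46.9 to 59.0 at 4 h, 73.4 to 84.3 at 1 day, 186 to 254 at 3 days and 244 to 281 at 10 days, against 67.7 to 89.4 in sham right. Of these 11 genes, 2 were called lower at 4 h (Gpr34 and Sall1), 1 higher at 1 day, 5 at 3 days and 6 at 10 days. At 4 h the microglia sums lay wholly below sham right, while the cathepsin sums (277 to 325 FPKM at 4 h and 271 to 310 FPKM in sham right) overlapped, and at 10 days P2ry12, Tmem119, Cx3cr1, Siglech and Olfml3 were not called. The summed FPKM of 11 macrophage markers was 16.2 to 31.1 at 4 h, 34.6 to 47.4 at 1 day, 104 to 216 at 3 days and 564 to 1980 at 10 days, against 18.7 to 25.8 in sham right. Lyz2 alone had 512 to 1900 FPKM at 10 days, 68.0 to 158 FPKM at 3 days and 9.42 to 15.5 FPKM in sham right. It made up most of the macrophage sum in these groups. Of the 10 macrophage markers that were tested, 1 was called higher at 4 h, 3 at 1 day, 7 at 3 days and 9 at 10 days. Itgax reached 1 FPKM in 10 day libraries only, and Ms4a7, Msr1 and Ptprc in stroke libraries only. These genes met the filter through groups in which they are high, so their calls there are not independent of it. Ccr2, Ms4a7, Mrc1, Msr1, Itgax and Ptprc had means under 1 FPKM in sham right, and of these Ccr2 alone was still under 1 FPKM at 10 days. The highest macrophage sum, 1980 FPKM, of which Lyz2 was 1900 FPKM, was in 10 day 5. Of the cathepsins, Ctsa, Ctsb, Ctsc, Ctsh and Ctsk were highest there among the 10 day libraries and Ctsd and Ctsf lowest, while Ctsl, Ctss and Ctsz were neither. The values of 10 day 5 and 10 day 1 were close for Ctsa (41.0 and 40.6 FPKM) and Ctsh (18.5 and 17.5 FPKM). Those of 10 day 5 and 10 day 2 were close for Ctsk (8.72 and 8.68 FPKM). The part of these cells in the cathepsin values was not tested. No neuron marker of 9 was called at any of the 4 times, and their sum was 1008 to 1095 FPKM at 10 days and 1048 to 1142 FPKM in sham right. No oligodendrocyte marker of 6 was called, and of 8 astrocyte markers 1 was called lower at 4 h and 1 higher at 1 day, 2 at 3 days and 1 at 10 days. Of 6 endothelial markers 2 were called lower at 4 h and 1 higher at 3 days, and of 4 tested choroid plexus markers none was called.

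**Figure D5:**
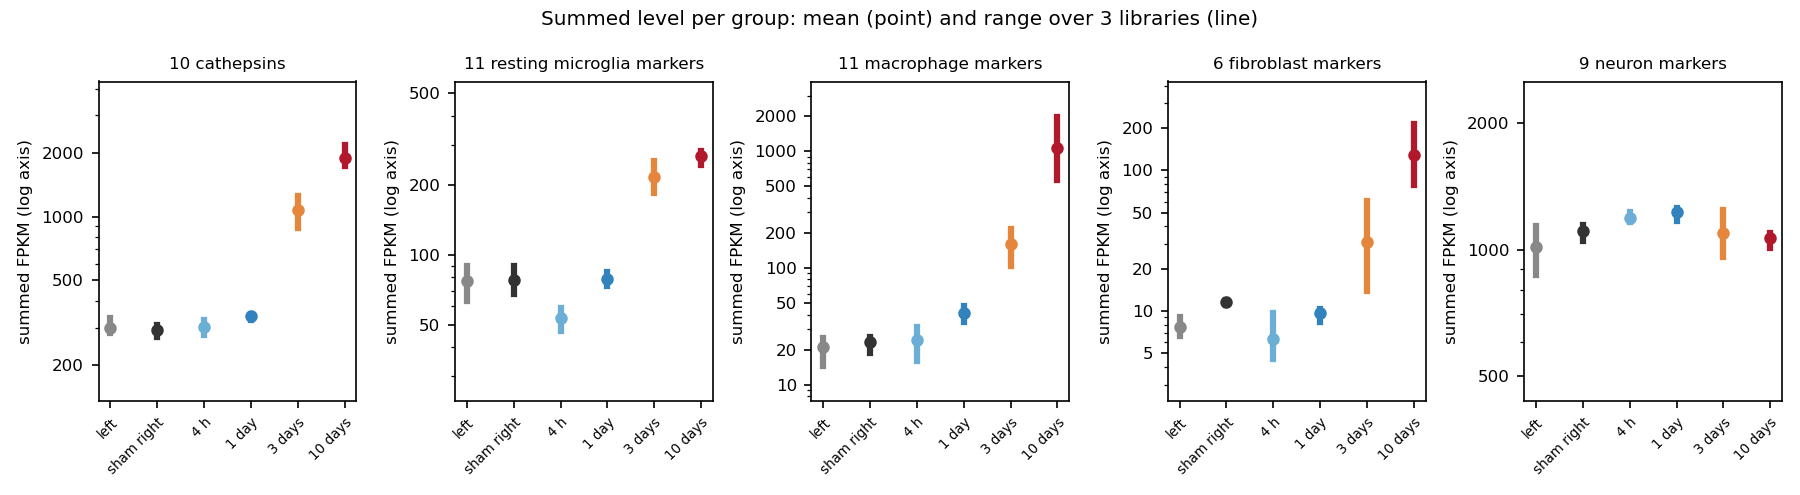
Summed FPKM on a log axis of the 10 cathepsins and of 4 marker lists (11 microglia, 11 macrophage, 6 fibroblast and 9 neuron genes) in each group, with the mean as a point and the range of 3 libraries as a line. The cathepsin, microglia and macrophage sums at 3 days and 10 days lie above sham right. The neuron sums of 1008 to 1095 FPKM at 10 days overlap the 1048 to 1142 FPKM of sham right. Lyz2 makes up most of the macrophage sum at 10 days (512 to 1900 FPKM).

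The genes with the most similar log2 profile over the 18 libraries, by Pearson r among all tested genes outside the members, are given as a description. These libraries fall into 6 groups, so an r mostly reads the difference between late and other libraries. Ctsd was nearest to Cd5l (0.994), Apoc2 (0.991) and Mpeg1 (0.986), and Ctsz to the lysosomal glucuronidase Gusb (0.994), the complement chain C1qc (0.988) and Ncf1 (0.988). Ctsb and Ctsa were both nearest to Tnfrsf1b (0.991 and 0.987), with Cd68 next for Ctsb and Glb1 next for Ctsa. Ctsl was nearest to Lgmn (0.978) and Ctsc to Tmem173 (0.987). Ctsk was nearest to Colec12 (0.937) and the collagen chain Col1a1 (0.933), and Ctsf to Zbtb22 (0.941). Among the 8 members called at 3 days, r ran from 0.844 (Ctsc with Ctsd) to 0.985 (Ctsa with Ctsb). Ctsk had 0.711 to 0.850 with these 8, and Ctsf had −0.344 to −0.126 with the other 9.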

How the data were processed

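Total RNA libraries of 18 micro-punched samples were analysed. The genome build GRCm38 and the tools StringTie 1.3.4d, HISAT2 2.1.0 and Trimmomatic 0.36 are named, without order or role, per the submitters' processing notes. Settings, annotation and strand handling are not given in the sources used here. The authors deposited FPKM values per gene and library, which are relative to all fragments of a library. More mitochondrial RNA in a library can therefore lower the values of its other genes. The copy used here holds 34921 complete gene entries in the order of the authors' q-value and ends within a line, and about 3101 further entries were not analysed. Whole reads could not be recovered from the FPKM values, so the depth is unknown and no counts were derived.

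The test covered the 14016 genes that had 1 FPKM or more in at least 3 libraries. A gene under 1 FPKM in sham right could enter through the groups where it is high, and its calls there are not independent of this filter. In R 4.3.3, limma 3.58.1 was run on log2(FPKM + 1) with 1 mean per group over all 18 libraries and empirical Bayes moderation (trend and robust; statmod 1.5.0). The pseudocount of 1 understates the changes of low genes. P-values were adjusted by Benjamini-Hochberg within each of 8 comparisons, tested two-sided. Fits were tested on simulated data with known changes. Alternatives were another pseudocount, no filter, rescaling without mitochondrial genes, median ratio scaling, fits of only the groups compared, limma without trend and robust, the replicate number as a block, each library left out, and the left side as a control or part of it. Where a group kept 2 libraries, the pooled spread was used.

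The labels give 3 animals for sham and for each time. The labels disagree on whether the left-side punches are of stroke or sham mice, so they may share mice with stroke libraries or with sham right, whose numbers 1 and 3 they also carry. The comparison of contralateral left with sham right treats them as independent. The members, gene lists and tests were chosen with earlier results of these data known. All 10 members are described. Other genes are named from the lists, or from the 3 with the most similar profile for each member, of which those of Ctss and Ctsh are not reported here. Gene coordinates and overlaps come from GENCODE M21, promoter windows and sequences from RefSeq (GRCm38.p6). Ctsb and Ctsh have no window in that table.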

Additional observations from a re-analysis of the deposited data

Results flagged for a closer look

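The effects at successive times differed by a direct test for 9 of the 10 cathepsins, each by limma with Benjamini-Hochberg adjustment over all genes. Ctsc was higher at 1 day than at 4 h by 1.34 ± 0.23 on the log2 scale (adjusted p = 0.00617), in 3 of 3 libraries, beside 0.849% of all genes called higher. This call ended with the replicate block (adjusted p = 0.248).

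At 3 days against 1 day the log2 differences were 2.37 for Ctsd (adjusted p = 2.17e-06), 1.92 for Ctsh (1.89e-06), 1.85 for Ctsz (7.96e-06), 1.73 for Ctss (2.40e-04), 1.14 for Ctsl (7.15e-05), 1.102 for Ctsa (6.12e-04), 0.89 for Ctsb (0.00208) and 0.81 for Ctsc (0.0489). The call of Ctsc held in 3 of 14 alternative fits. Of all genes 5.07% were called higher. All 3 day values of these 8 members lay above all their 1 day values, as did those of 16.9% of all genes.

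At 10 days against 3 days they were 1.20 for Ctss (adjusted p = 0.0106), 1.12 for Ctsk (0.00198) and 0.91 for Ctsd (0.0134), beside 0.828% of all genes called higher. All 10 day values of these 3 lay above all their 3 day values, as did those of 5.77% of all genes. None of the 3 calls held in the fit of only these 2 groups (adjusted p = 0.118 to 0.329).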

How the results depend on the processing

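The member counts at 3 days (8) and 10 days (9) against sham right were the same in all 16 alternatives, and that of contralateral left (0) in all 14. At 4 h 1 member, Ctsh, was called with a pseudocount of 0.1, in the fit of only the 2 groups, without contralateral left 5 and 10 day 5, and with both control groups as the control (adjusted p = 0.0355, 0.0470, 0.0148 and 0.02004 in that order). At 1 day 0 members were called with no filter, with median ratio scaling and with the replicate block, and 0 to 1 with a library left out. With the block 0 members were called at 1 day against 4 h (Ctsc adjusted p = 0.248). At 10 days against 3 days 6 were called with median ratio scaling, 0 in the fit of only the 2 groups (Ctsd, Ctss and Ctsk adjusted p = 0.329, 0.118 and 0.196), and 1 to 3 with a library left out. At 3 days against 1 day 7 or 8 were called with a library left out.

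The replicate number was tried as a block although the labels do not say that it marks a shared mouse. Same-numbered libraries of different groups correlated by −0.227 to 0.409 in their deviations from group means over 23 pairs (median 0.0374), and 9 of the 23 were over 0.1. The numbers were therefore not taken to pair the libraries, which does not show that no pair shares a mouse. With this pairing, 106 genes were called at 4 h against 306, 62 at 1 day against 165, 13 at 1 day against 4 h against 172, 377 at 3 days against 1 day against 732, and 142 at 10 days against 3 days against 283. The call of Ctsc at 1 day was also lost (adjusted p = 0.180).

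Of 30 called member values, 24 kept their call in all alternatives and no value reversed. Uncalled values reversed in 29 fits, all within −0.22 to 0.18. Rescaling without mitochondrial genes gave 0.087 for Ctsf, 0.0024 for Ctsl and 0.054 for Ctss at 4 h and 0.062 for Ctsd at 1 day. The left side as control gave −0.036 for Ctsd and −0.20 for Ctsz at 4 h and 0.043 for Ctsk at 1 day, and both controls together −0.083 for Ctsz at 4 h. Median ratio scaling gave −0.043 for Ctsf and −0.024 for Ctsk at 3 days. The replicate block gave 0.13 for Ctss at 4 h, −0.22 for Ctsk at 3 days and −0.084 for Ctsk at 3 days against 1 day. Without contralateral left 5 and 10 day 5, Ctsf had 0.18 at 10 days and 0.12 at 10 days against 3 days, and Ctsc −0.024 there. With a library left out, values ran at 4 h from −0.088 to 0.0046 for Ctsf, −0.18 to 0.12 for Ctss and −0.065 to 0.10 for Ctsz, at 1 day from −0.079 to 0.094 for Ctsd, at 3 days from −0.020 to 0.13 for Ctsf and −0.20 to 0.20 for Ctsk, at 10 days from −0.58 to 0.18 for Ctsf, at 3 days against 1 day from −0.0029 to 0.39 for Ctsk, and at 10 days against 3 days from −0.024 to 0.38 for Ctsc and −0.63 to 0.12 for Ctsf. The cause was not tested.

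The number of all genes called moved more, over 90 to 1806 at 4 h (306), 62 to 418 at 1 day (165), 680 to 1834 at 3 days (1032), 0 to 2760 in contralateral left (4), 13 to 706 at 1 day against 4 h (172), 377 to 1290 at 3 days against 1 day (732) and 3 to 336 at 10 days against 3 days (283). The shift of the median of all genes by scaling passed 0.1 at 4 h (0.11 without mitochondrial genes) and at 10 days against 3 days (−0.10 without them, 0.14 with median ratio scaling). The depth is unknown, so its limit on members of a few FPKM such as Ctsc, Ctsh and Ctsk cannot be given.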
